A study of Mus musculus with 6 samples.

Results

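The 64 DNA sequences described here are the members of a library called R4 that carry C at position 10 of a Gli binding site and every combination of bases at positions 11, 12 and 13. Recombinant mouse Gli protein, called Gli1 in the sample titles, was mixed in vitro with double-stranded DNA, and DNA that moved with the protein on a gel was separated from free DNA and sequenced. The reaction that holds R4 was measured once and gave 2 samples, 1 bound and 1 unbound, of the 6 samples and 3 binding reactions in the series. Its table has an R4-R5 block of 508 sequences of 7 bases, read as positions 10 to 16, and an R6 block of 64 sequences of 3 bases. Members were taken by sequence alone, as the listed sequences that start with C and end with GAA, the most frequent bases at positions 14, 15 and 16. They are 64 of the 508 sequences in the block and of 2094 sequence lines in the series. The titles and block headings of this reaction name R4 to R6, whereas its characteristics describe unmethylated and M.SssI-treated libraries named for CTCF. No heading gives a methylation state for this block, so none is assumed.

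Gli proteins are the zinc finger transcription factors at the end of the Hedgehog signalling pathway, which patterns tissues in the embryo and is active in several tumours. They recognise a DNA site whose core is rich in C and A. The assay, Spec-seq, counts every sequence in the bound and unbound fractions of 1 reaction, and a sequence that is bound more tightly has a higher ratio of bound to unbound reads. The ratio was taken after 0.5 was put on each count, it is not scaled for depth, and only ratios between sequences of 1 reaction can be compared.

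The place of the members in the site was inferred from a second table, which lists all 16 bases, since the R4-R5 block does not list those before position 10. The second table names no reaction, so the 9 leading bases printed for each member are inferred and were not listed with the R4 counts. In the most frequent sequence of the second table the capitals mark the 9 bases after which all 64 members are listed there. In the members the capitals mark the varied positions 11 to 13. Position 1 is the first of these 16 bases. The member with the most frequent bases of the library stands under it, and the strongest and weakest members follow with their values.

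most frequent bases of the 16-base table: GACCACCCAagatgaa

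member with the most frequent bases: gaccacccacGATgaa

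All 64 members passed the minimum of 10 reads in each fraction. They held 57580 bound and 35018 unbound reads, which is 16.9% of the bound and 6.69% of the unbound reads of the block. Bound counts ran from 95 to 2586 per member and unbound counts from 135 to 2252. The counting standard error (SE) of a natural log ratio, from the counts alone, had a median of 0.06 and ran from 0.03 to 0.12. With 1 library per fraction there was no replicate and no p-value, and because the DNA was amplified by PCR and no molecular identifier is named, every SE below covers counting error only.

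Gli bound the members over a 23.7-fold range. The 5 strongest, which show the bases shared by high binders, are given first and are named by their last 7 bases.

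member ranked 1: gaccacccacGTTgaa

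member ranked 2: gaccacccacGATgaa

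member ranked 3: gaccacccacGACgaa

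member ranked 4: gaccacccacGTCgaa

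member ranked 5: gaccacccacGTAgaa

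CGTTGAA had 2586 bound and 297 unbound reads, a ratio of 8.69. CGATGAA had 1551 and 213 reads and a ratio of 7.27. CGACGAA had 1022 and 144 reads and a ratio of 7.08. All 3 share G at position 11 and either T or A at position 12. CGTCGAA, with 1523 and 223 reads, had a ratio of 6.82, and CGTAGAA, with 2044 and 324 reads, had 6.30. The 7 strongest sequences of the whole block were members, and the 8th was AGACGAA, with A at position 10 and a ratio of 4.59.

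The 5 weakest members all lacked G at position 11, and each carried C at position 12 or G at position 13.

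member ranked 60: gaccacccacTCCgaa

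member ranked 61: gaccacccacAAGgaa

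member ranked 62: gaccacccacCCCgaa

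member ranked 63: gaccacccacTCGgaa

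member ranked 64: gaccacccacCCAgaa

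CCCAGAA had 128 bound and 350 unbound reads, a ratio of 0.367. CTCGGAA had 342 and 923 reads and a ratio of 0.371, within counting error of it. CCCCGAA, the shallowest member, had 95 and 234 reads and a ratio of 0.407. CAAGGAA is the only one of these without C at position 12, and its 281 bound and 656 unbound reads gave 0.429. CTCCGAA had 210 and 480 reads and a ratio of 0.438.

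Between the ends the members formed a nearly continuous series. Of the 63 steps between neighbours in the order, 3 (4.76%) were larger than 2 counting SE, so most neighbouring ranks are not distinguishable. The largest step, 1.37-fold, separated CGTGGAA (ratio 4.94) from CGGCGAA (3.60) and set off the 7 leading members, all with G at position 11. The others lay on either side of CCTAGAA (1.13), below CATGGAA (1.34) and above CACTGAA (0.832).

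The members lay high in the block. Their median ratio was 1.80, against 0.449 for all 508 sequences and 0.465 for the 192 R4 sequences with another base at position 10. A sequence was called high or low when its ratio lay over 2-fold above or below the pooled ratio of the block, 0.652, and by more than 2 counting SE. Of the members 42 of 64 were called high, against 21.5% of the block. None was called low, against 38.2% of the block. The weakest member ranked 299 of 508, and 29 of the 64 strongest sequences of the block were members.

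At position 11, G gave the strongest binding. The 16 members with G there had a mean log ratio of 1.26 ± 0.68 (SD, n = 16 sequences). A followed with 0.30 ± 0.71, C with 0.14 ± 0.77 and T with 0.09 ± 0.67. G lay above the mean of the other bases by 1.08 ± 0.02 (counting SE), or 2.96-fold, and the 9 strongest members all carried it. The highest ratio without G at position 11 was that of CATTGAA, 3.53. G at this position forms a CpG with the C at position 10.

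Position 12 was marked by the low ratios of C. Its mean log ratio was -0.30 ± 0.66 (SD, n = 16), below the mean of the other bases by 2.71-fold (-0.997 ± 0.02, counting SE). T had the highest mean, 0.82 ± 0.78, followed by A with 0.74 ± 0.77 and G with 0.53 ± 0.72.

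At position 13 the low base was G, with a mean of -0.23 ± 0.68 (SD, n = 16). It lay below the other bases by 2.46-fold (-0.90 ± 0.02, counting SE). T and C were nearly level at the top, with 0.74 ± 0.77 and 0.73 ± 0.83, and A had 0.56 ± 0.76. The SDs are the spread over sequences that also differ at the other positions, and they are wider than the gaps between T, A and G at position 12 and between T, C and A at position 13.

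Having neither C at position 12 nor G at position 13 separated most of the members. All 36 members of this kind had a ratio above 1, the lowest being CCTAGAA at 1.13. The other 28 split by the base at position 11. With G there, 6 of 7 were above 1, and the exception, CGGGGAA, had 1781 bound and 2252 unbound reads and a ratio of 0.791. Without G there, 1 of 21 was above 1, namely CATGGAA at 1.34. This split was chosen after the values were seen. A ratio of 1 is an arbitrary line, since ratios are not scaled for depth, and the pooled ratio of the block was 0.652.

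Single-base changes from CGTTGAA, the strongest member, followed the same order of bases, and their values are among those behind the means above. CGTTGAA was picked as the highest, so falls from it are a description. Its 9 variants within the members were therefore each lower in ratio. The fall exceeded 2 counting SE in 8 of them, and 79.4% of all R4 single-base pairs differed by this much in either direction. A substitution is written with the base of CGTTGAA, the position and the variant's base. G11T (CTTTGAA) lowered the ratio 6.03-fold, to 1.44 from 1357 bound and 941 unbound reads. G11C (CCTTGAA) lowered it 4.39-fold, and G11A (CATTGAA) 2.46-fold. At position 12, T12C (CGCTGAA) lowered it 3.29-fold and T12G (CGGTGAA) 2.77-fold, whereas T12A changed the log ratio by -0.18 ± 0.10, within 2 counting SE. At position 13 the ratio was lowered 1.76-fold by T13G, 1.38-fold by T13A and 1.28-fold by T13C.

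The cost of a change depended on the starting sequence. From CGATGAA, which differs from CGTTGAA by A at position 12, T13G (CGAGGAA) lowered the ratio 3.82-fold, against 1.76-fold from CGTTGAA. G11A lowered it 3.81-fold from CGATGAA (to CAATGAA, 1.91), against 2.46-fold from CGTTGAA. G11T went the other way, with 3.61-fold from CGATGAA and 6.03-fold from CGTTGAA. Across all 288 pairs of members that differ by 1 base, 116 differed by over 2-fold and by more than 2 counting SE (40.3%), against 45% of all 1536 such pairs in R4. By position these were 41 of 96 (42.7%) at position 11, 44 of 96 (45.8%) at position 12 and 31 of 96 (32.3%) at position 13. In R4 sequences with another base at position 10 the shares were 52.1%, 43.8% and 32.6%, so the members were close to them at positions 12 and 13.

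A model in which each position acts alone left a spread well above counting error. An ordinary least squares fit with 1 term for each base at positions 11, 12 and 13 accounted for 82.9% of the variance over the 64 members, with a residual SD 5.74 times the counting SE. Adding terms for the pair of positions 11 and 12 raised the share by 7.83 ± 0.48 percentage points (counting SE), and the pair 12 and 13 raised it by 7.38 ± 0.50. The pair 11 and 13, which are not neighbours, has as many terms and raised it by 0.94 ± 0.20, or by 1.45 without CCCCGAA, the 1 member under 100 reads in a fraction. With both neighbouring pairs the share was 98.1%, and with all 3 pairs 99.1%. This share can only rise as terms are added, and with all 3 pairs the residual SD was still 1.90 times the counting SE. The additive share and the gains from pairs were not particular to the members. With A, G and T at position 10 the additive share was 86.1%, 79.0% and 81.1%. There the pair 11 and 12 added 7.26, 6.01 and 10.8 points. The pair 12 and 13 added 4.42, 10.1 and 5.82, and the pair 11 and 13 added 1.25, 1.48 and 1.52.

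CGGGGAA lay furthest from the additive model, below the fitted value by a residual of -0.90 in log ratio. CAAGGAA had -0.77, CCCCGAA -0.57 and CCCAGAA -0.51. The 2 lowest of these have G at position 13 and a purine before it. Above the fitted value were CGTGGAA with 0.64, CGCGGAA with 0.59, CCGCGAA with 0.58 and CCCGGAA with 0.57. In 3 of these G at position 13 follows a pyrimidine.

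The difference between G and other bases at position 13 varied with the base before it. After G at position 12, members with G at position 13 had a geometric mean ratio of 0.552 (n = 4), against 2.48 for other bases there (n = 12), a 4.49-fold difference. After A it was 0.852 against 2.83, or 3.33-fold. After T it was 1.37 against 2.68, or 1.95-fold, and after C 0.623 against 0.786, or 1.26-fold. The log differences were -1.50 ± 0.03, -1.20 ± 0.04, -0.67 ± 0.03 and -0.23 ± 0.04 (counting SE), so each step exceeded counting error. In R4 sequences with another base at position 10 the difference after G was also the widest, between 3.96-fold and 4.45-fold, and that after C the narrowest, between 1.12-fold and 1.46-fold.

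The choice between T and A at position 12 turned with the base at position 11. After a purine, A or G, T gave the higher ratio in 7 of 8 comparisons with the same bases elsewhere, with a mean log difference of 0.50 ± 0.03 (counting SE). After a pyrimidine, C or T, A gave the higher ratio in 8 of 8, with a mean of -0.34 ± 0.03. Of the 16 comparisons 11 exceeded 2 counting SE, 5 with T higher after a purine and 6 with A higher after a pyrimidine, against 79.4% of all R4 single-base pairs in either direction.

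The sequences on each side show this turn, a contrast that, like those on the base before G at position 13, was chosen after the values were seen. CATTGAA (1645 bound and 466 unbound reads, ratio 3.53) lay above CAATGAA (739 and 387 reads, 1.91). With T at position 11 instead, CTTTGAA (1357 and 941 reads, 1.44) lay below CTATGAA (1296 and 643 reads, 2.01). The widest differences after a purine were those followed by G, 3.12-fold for CATGGAA over CAAGGAA and 2.60-fold for CGTGGAA over CGAGGAA. Without G at position 13 the mean differences were 0.31 ± 0.04 after a purine and -0.42 ± 0.04 after a pyrimidine. After G alone, 3 of the 4 differences lay within 2 counting SE. In the R4 sequences with another base at position 10, T was higher in 18 of 24 comparisons after a purine and in 3 of 24 after a pyrimidine.

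The effects of G at position 11 and C at position 12 also depended on each other's neighbours. G at position 11 raised the ratio 4.12-fold before T, 3.90-fold before C and 3.06-fold before A, but 1.56-fold before G (n = 4 against 12 in each). C at position 12 lowered the ratio 3.69-fold after C, 2.88-fold after T, 2.46-fold after A and 2.06-fold after G. The 4 members with C at both positions 11 and 12 had a geometric mean ratio of 0.433.

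Replacing C at position 10 lowered binding in 191 of 192 comparisons with the same bases at positions 11 to 13. The fall exceeded 2-fold and 2 counting SE in 170 (88.5%), and no replacement rose by as much. Among all R4 single-base pairs 45% differed by this much, and among pairs at position 10 that do not involve C 18.2% did. The median fall over 64 contexts was 3.64-fold to A, 3.23-fold to G and 3.32-fold to T. The members were chosen by sequence and not by counts, although with an earlier result on position 10 known.

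The cost of losing C varied most for A. Before A at position 11 the change from C to A lowered the ratio by a median of 6.74-fold, and before G by 1.97-fold (n = 16 each). The greatest single fall was from CAATGAA (1.91) to AAATGAA, which had 76 bound and 569 unbound reads and a ratio of 0.134. For the change to G the medians by base at position 11 ran from 2.53-fold before T to 4.02-fold before G, and for the change to T from 2.96-fold before A to 3.68-fold before T. Seen from position 11, G lay above the other bases by 6.41-fold when A preceded it, 3.16-fold after T, 2.96-fold after C and 2.42-fold after G.

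Averaged over the replacements, the contexts that lost most were CATTGAA (7.05-fold), CAATGAA (6.79-fold) and CAACGAA (5.90-fold), all with A at position 11. Those that lost least were CGGCGAA (1.68-fold), CGGTGAA (1.76-fold) and CGGAGAA (1.87-fold), all with G at positions 11 and 12. The 1 comparison in which C was lower was CAAGGAA, at 0.429, against GAAGGAA, whose log ratio was 0.35 higher, beyond 2 counting SE but under 2-fold. That sequence is named because it is the only exception.

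The R6 library of the same reaction, which lists 3 varied bases, gave values close to those of the members. R6 was set at positions 11 to 13 because its values match the members there, so the match itself is a description. R4 lay above R6 by a median log ratio of 0.06, and the SD of the differences was 0.08, against a counting SE of 0.07. Of 64 sequences 17 (26.6%) differed by more than 2 counting SE, all with R4 higher, and 5 did after the median was removed. The members furthest apart in counting SE were CGGGGAA (0.791 in R4 and 0.660 in R6), CATTGAA (3.53 and 2.84) and CTCAGAA (0.615 and 0.487). The same 7 sequences led both libraries.

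The dependence between neighbours had a like form in R6. Since R6 was set at these positions by the match of its values, this likeness follows from that match and is not separate support. There pair terms added 8.35 percentage points for positions 11 and 12, 6.89 for 12 and 13, and 0.86 for 11 and 13. Departures from the additive model had the same sign in both libraries in 61 of 64 sequences, with r = 0.983 and rho = 0.979 across sequences, which share the reaction and are not independent replicates. By sign alone, T exceeded A at position 12 of R6 in 8 of 8 comparisons after a purine and in 0 of 8 after a pyrimidine. The smallest after a purine, both with G at position 11, were 0.02 with C and 0.05 with A at position 13. No counting SE was worked out for these R6 differences. The fall from CGTTGAA on T13C did not recur, since the same change in R6 was 0.00 in log ratio.

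A separate reaction held R6 in 4 stated methylation states. Across the 64 sequences, the members had r = 0.987 with the unmethylated block, 0.938 with the top-strand hemimethylated, 0.249 with the M.SssI-treated and -0.170 with the duplex methylated block. The members' spread was wider than that of the unmethylated block, 23.7-fold against 15.2-fold. In 34 members a CpG is present, counting those formed with the C at position 10 or the G at position 14. The median difference of log ratio between the members and the unmethylated block was -0.51 for these and -0.67 for the 30 without CpG, a gap of 0.16. The same gap was 0.28 against the hemimethylated, 0.50 against the duplex methylated and 1.22 against the M.SssI block. Among the 30 sequences without CpG the SD of these differences was 0.19 for the unmethylated, 0.28 for the hemimethylated, 0.18 for the M.SssI and 1.17 for the duplex methylated block. Among the 34 with CpG it was 0.16, 0.27, 1.17 and 1.31 in the same order. The gap of 0.50 for the duplex methylated block is thus smaller than both of its SDs, and the smallest count in that block was 24 reads. The gap for the unmethylated block, 0.156, is also smaller than both of its SDs, 0.195 and 0.160. That for the hemimethylated block, 0.275, lies between its SDs of 0.281 and 0.266, and only the M.SssI gap exceeds both.

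In the authors' deposited table of 16-base sequences, whose reaction is not named, the members were not in this order. All 64 had at least 10 reads in each fraction there, with r = -0.050 and rho = -0.011 across sequences. The unbound counts were small, from 12 to 84 reads, the median counting SE was 0.16, and the members spanned 4.88-fold. In that deposited table of the authors CGTTGAA had a ratio of 47.6 and ranked 40 of 64, and CCCAGAA had 60.9 and ranked 26.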

How the data were processed

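Bound and unbound DNA from a gel shift of recombinant mouse Gli was recovered, amplified and sequenced, per the labels' protocols. The authors deposited whole-number read counts per sequence in each fraction, per the file headers, and the ratio of the bound to the unbound count, not scaled for depth. How reads were counted and filtered is not given in the sources used here.

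The log ratio was the natural log of the bound over the unbound count with a pseudocount of 0.5, for sequences with at least 10 reads in each fraction. Its counting SE was the square root of the summed reciprocal counts, carried to means and shares of variance by first-order propagation. A difference was called when it exceeded 2-fold and 2 counting SE. Over its 572 sequences the R4-R6 table summed to 774169 bound reads and 805024 unbound reads. Block titles, not file names, tied columns to samples, and the columns of the 16-base table name no reaction. Position 13 has no most frequent base in the block, so T was taken from the 16-base table.

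The members, the rule for named sequences (the strongest and weakest, the variants of the strongest, the largest residuals, the extreme contexts at position 10 and the largest differences from R6) and the alternatives were chosen with earlier results of these data known. The calculations were tested on simulated counts. Python 3.11.15, numpy 2.4.6 and scipy 1.17.1 were used.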

Additional observations from a re-analysis of the deposited data

How the results depend on the processing

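No reaction was repeated, so the values rest on 1 library per fraction, and depth limits the comparison of neighbours in the order. The ratio pairs the bound and unbound samples of 1 reaction, but each group has 1 sample and no replicate, so no test was possible. Of 107 alternative values for 17 results, 95 moved by less than their counting interval (counts, by less than 1.5 times), 12 moved further and 0 reversed. Many of the 95 could hardly move, so their number is no measure of robustness. The lowest count in the block was 36, so dropping the 10-read minimum changed nothing, and the pseudocount settings and the deposited ratio use the same counts. The 12 came from weighting, medians, the 1.5-fold threshold, the 100-read minimum or leaving out the weakest members. With a 1.5-fold threshold 4 members were called low. G at position 11 lay above the other bases by 0.74 with means weighted by counting variance and by 0.92 with medians, against 1.08. C at position 12 gave -0.71 and -1.22, against -0.997, and G at position 13 gave -1.07 with medians and -0.94 with at least 100 reads in each fraction, which leaves out CCCCGAA alone. The additive model accounted for 78.5% of the variance when weighted and 72.9% without the weakest 25% of members. Weighting raised the gain of the pair 11 and 12 to 11.4 points and of 12 and 13 to 9.81, and the 100-read minimum raised that of 11 and 13 to 1.45. The causes were not tested.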
